A study of Bos taurus with 8 samples.

Results

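The transcripts described here are those of 10 genes of bone morphogenetic protein (BMP) and TGF-beta signalling: the SMAD genes SMAD1, SMAD2, SMAD3, SMAD4, SMAD5 and SMAD7, and the receptor genes BMPR1A, BMPR2, ACVR1 and ACVR2A. They were found by symbol in the annotation of the array platform, with every probe of each gene, which gave 20 of the array's 43794 probes and 10 of its 15212 gene symbols. The set was selected on the ratio of SMAD1 between the groups, which an earlier analysis of the same arrays had called; the other genes were added as its receptors and relatives. The SMAD1 values below are therefore a description, and they support nothing about the pathway.

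The samples were bovine 2-cell embryos made in vitro and collected at 29.5 hours post-fertilization (hpf), the group that the series calls fast, or at 46 hpf, the group it calls slow. The series set out to compare the messenger RNA of embryos that cleave early and late. The same protocols are given for both groups. The oocytes came from slaughterhouse ovaries of Holstein cows, matured in vitro, met thawed sperm mixed from 5 bulls, and developed in mSOF, a defined culture medium, after the cumulus cells had been removed mechanically. The sources used here do not give the number of embryos behind each RNA sample. Hours of culture and speed of cleavage differed together between the groups and cannot be told apart.

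RNA of both groups was amplified in 2 rounds of T7 transcription and hybridised together on each of 8 two-colour oligonucleotide arrays. Cy5 marked the 29.5 hpf RNA on 4 arrays and the 46 hpf RNA on 4. The series describes 4 biological replicates with a dye swap, and the labels number the arrays 1 to 4 in each orientation. A ratio below is log2 of the signal at 29.5 hpf over that at 46 hpf, so 1 unit is a 2-fold difference, and a positive ratio means more signal at 29.5 hpf. Each mean is that of 4 replicate values, each the average of a dye-swapped pair, with the SD between them. Adjusted p-values come from limma, a linear model fitted to all 31559 probes that stood above background, with Benjamini-Hochberg adjustment over all of them and a threshold of 0.05. Because probes differ in how strongly they bind, the level of a probe was not compared with that of another. Levels of different probes were added only for the marker lists, where bright probes weigh most. Numbers such as "probe 2" are only names, given in order of signal.

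By correlation, the arrays numbered 1 and 2 did not pair as numbered. Over all tested probes the ratios of the labelled dye-swap pairs correlated at 0.72 for number 4 and 0.62 for number 3, but at 0.04 for number 1 and 0.05 for number 2. A correlation of 0.67 joined array 1 with 29.5 hpf in Cy5 to array 2 of the opposite orientation, and the remaining pair reached 0.52. The labelled numbers were kept. A probe's mean is the same when numbers 1 and 2 are exchanged, while its SD and p-value move, and the counts of calls move with them. The SD moved from 0.11 to 0.06 for SMAD1 and from 0.05 to 0.20 for the marker NLRP2. If the numbers are crossed, labelled averages 1 and 2 each mix 2 biological replicates. The labelled SD is then not the spread between biological replicates. Which pairing holds was not tested. With the numbers exchanged, 4 probes were called higher and 0 lower at 29.5 hpf, against 212 and 176 as labelled, and with any 1 replicate left out 0 were called either way. Values with exchanged numbers are given below for SMAD1, for called genes and for probes that they bear on. The median raw signal of an array was 152.1 to 343.8 in Cy5 and 128.5 to 195.7 in Cy3, and the number of arrays limits the precision of every ratio.

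BMPs are secreted ligands that bring together type I and type II receptors, which are serine/threonine kinases of the cell surface. The type II receptor phosphorylates the type I receptor, which then phosphorylates receptor-regulated SMAD proteins. SMAD1 and SMAD5 carry the signals of BMP receptors, SMAD2 and SMAD3 those of activin and TGF-beta receptors. Both kinds join SMAD4 and enter the nucleus to regulate target genes, and SMAD7 blocks the receptors as an inhibitor. The oocyte secretes GDF9 and BMP15, ligands of this family, and a 2-cell bovine embryo still lives mainly on RNA that the oocyte stored. Both groups were labelled as 2-cell embryos, so the labels give the same number of embryo cells in each. For transcripts that other attached cells could carry, fewer RNA molecules per cell and fewer such cells cannot be told apart.

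SMAD1 signal was higher at 29.5 hpf, and this is the ratio on which the set was selected. On the arrays with 29.5 hpf in Cy5 its ratio was 1.37, 1.09, 1.09 and 1.32, and on those with 46 hpf in Cy5 it was 1.52, 1.31, 1.78 and 1.43. All 8 arrays had more SMAD1 signal at 29.5 hpf. The mean ratio was 1.36 ± 0.11 (SD, n = 4), a 2.57-fold higher signal at 29.5 hpf. The normalized log2 intensity of the probe was 13.39, 13.20, 13.50 and 13.16 in the 4 replicates at 29.5 hpf, against 11.95, 12.00, 12.06 and 11.79 at 46 hpf. The groups did not overlap, and the lowest 29.5 hpf value lay above the highest 46 hpf value. The share of all tested probes with such a gap was not counted. SMAD1 ranked 19 of the 31559 tested probes by its ratio and 3 by its p-value. Its limma adjusted p was 0.0217 with the labelled numbers, and 0.0365, with an SD of 0.06, after numbers 1 and 2 were exchanged.

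The samples' titles carry a further number, 140, 141 or 142, and for 141 and 142 it follows the dye orientation. The mean SMAD1 ratio was 1.32 over the 3 arrays titled 140, which hold both dye orientations. It was 1.20 over the 2 arrays titled 141, all with 29.5 hpf in Cy5, and 1.51 over the 3 titled 142, all with 46 hpf in Cy5. In the authors' deposited table of log2 ratios the 8 SMAD1 values lay between 1.08 and 1.76, with a mean of 1.37. The ratio was present in each subset and in the authors' own normalization. All of these values come from the 8 arrays on which SMAD1 was selected, so they describe the ratio and do not test it. The call was less firm than the ratio: with any 1 replicate left out the mean stayed between 1.34 and 1.42, while the adjusted p lay between 0.0688 and 0.190.

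**Figure D1:**
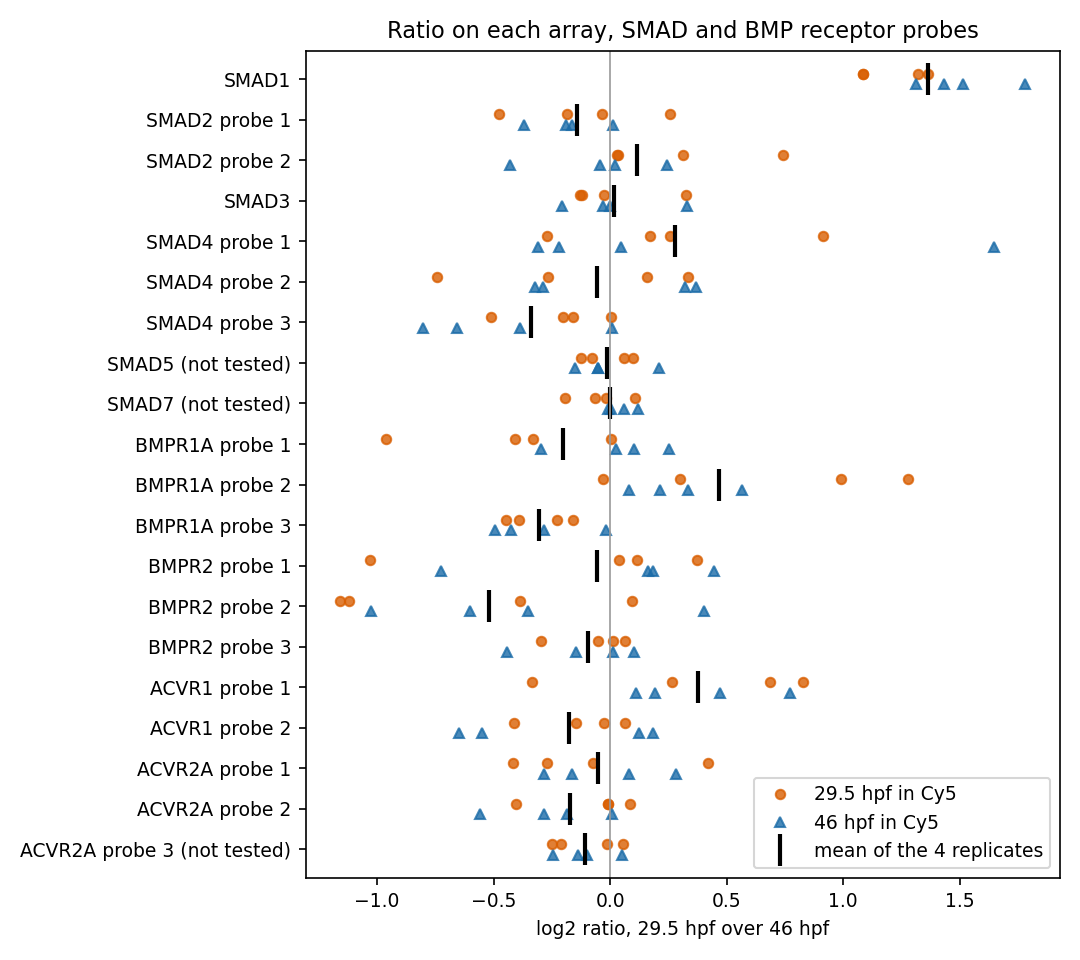
Log2 ratio of 29.5 hpf over 46 hpf on each of the 8 arrays (horizontal axis) for the 20 probes of the 10 genes; circles are arrays with 29.5 hpf in Cy5, triangles arrays with 46 hpf in Cy5, and bars the mean of the 4 replicates. All SMAD1 points lie at or above 1.09, while the means of the other probes lie between -0.52 and 0.47.

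Of the 20 probes, 17 stood above background often enough to be tested, and these covered 8 of the genes. SMAD1 was the 1 member probe called higher at 29.5 hpf, where 0.672% of all tested probes (212) were called higher. No member probe was called lower, where 0.558% of all tested probes (176) were. Before adjustment, 5 of the 17 member probes had a limma p under 0.05, or 29.4%, against 16.9% of all tested probes (5321). SMAD1, on which the set was selected, is among the 5. The other 4 were probe 3 of SMAD4, probes 2 and 3 of BMPR1A and probe 1 of ACVR1. The 2 BMPR1A probes had ratios of opposite sign, and no excess is read from this share. With numbers 1 and 2 exchanged SMAD1 was still called, and the limma adjusted p of the other 16 tested member probes was 0.244 to 0.961. The median ratio was -0.05 over the 17 probes and -0.01 over all tested probes. Of the 17, 6 were above 0, as were 15167 of all 31559 tested probes. Next to SMAD1, on the far side of the threshold, came BMPR1A probe 3 with an adjusted p of 0.107.

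SMAD5, the close relative of SMAD1 in BMP signalling, gave no measurement. Its only probe stood above background on 0 of 8 arrays at 29.5 hpf and on 1 of 8 at 46 hpf. SMAD7, the inhibitor, was likewise above background on 1 of 8 arrays at 29.5 hpf and 0 of 8 at 46 hpf. Neither probe was tested. A probe that is not above background gives only an upper bound, so nothing can be said of a difference in these transcripts.

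SMAD2, which carries activin and TGF-beta signals, had a bright probe and no called difference. Probe 1 had normalized log2 intensities of 12.71, 12.56, 12.64 and 12.93 at 29.5 hpf, against 12.99, 12.88, 12.61 and 12.95 at 46 hpf, and the groups overlapped. Its mean ratio was -0.14 ± 0.18 (SD, n = 4; limma adjusted p = 0.507), with 2 of 8 arrays higher at 29.5 hpf. SMAD2 probe 2 gave a ratio of 0.11 ± 0.29 (SD, n = 4; adjusted p = 0.723). The means of the 2 probes had opposite signs and both were smaller than their SD. SMAD3, which acts beside SMAD2, had a ratio of 0.02 ± 0.17 (SD, n = 4; adjusted p = 0.947), with array values between -0.21 and 0.33.

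SMAD4 is the partner that both SMAD branches need. Its probe 1 had replicate ratios of 0.15, -0.02, 1.28 and -0.29, a mean of 0.28 ± 0.69 (SD, n = 4; limma adjusted p = 0.673). Without replicate 3 the mean was -0.05. Its intensities were 9.16, 8.94, 9.44 and 9.25 at 29.5 hpf, against 9.01, 8.97, 8.16 and 9.54 at 46 hpf, and replicate 3 was both the highest at 29.5 hpf and the lowest at 46 hpf. Both arrays of replicate 3 showed it, with ratios of 0.91 and 1.65, while the other 6 lay between -0.31 and 0.26. In the authors' deposited table the same 2 arrays had 2.81 and 1.83. SMAD4 probe 2 shared this in part. Its ratio was highest in replicate 3, at 0.24, and its 46 hpf intensity was lowest there, at 8.46. Its 29.5 hpf intensity was lowest there too, at 8.70. Probe 3 did not share it, with a replicate 3 ratio of -0.40.

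SMAD4 probe 2 averaged -0.05 ± 0.33 (SD, n = 4; limma adjusted p = 0.891). SMAD4 probe 3 was negative in all 4 replicates, at -0.27, -0.10, -0.40 and -0.59, with a mean of -0.34 ± 0.21 (SD, n = 4; adjusted p = 0.162). Its p-value passed the threshold only when the 8 arrays entered singly with the title number as a block (adjusted p = 0.0442). The 3 SMAD4 probes therefore gave means on both sides of 0, and no direction is given for the gene.

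**Figure D2:**
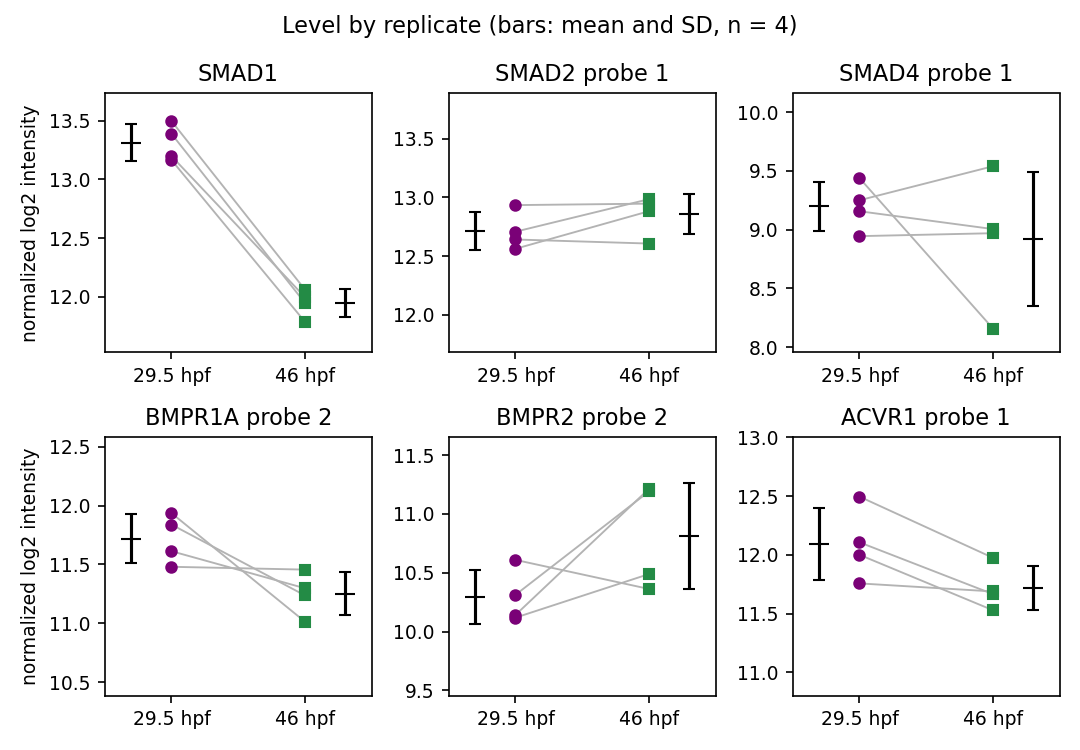
Normalized log2 intensity (vertical axis) in the 4 labelled replicates at 29.5 hpf (circles, left) and 46 hpf (squares, right) for 6 probes; grey lines join the channels of a replicate, and the bars beside the points give the mean and SD. SMAD1 shows groups that do not overlap, and those of BMPR1A probe 2 nearly touch. SMAD4 probe 1 shows replicate 3 far below the others at 46 hpf.

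BMPR1A encodes a type I receptor that binds BMP2 and BMP4 and phosphorylates SMAD1. Its 3 probes did not run together. Probe 2 was the higher one at 29.5 hpf, with replicate ratios of 0.31, 0.60, 0.02 and 0.92 and a mean of 0.47 ± 0.39 (SD, n = 4; limma adjusted p = 0.212). Its intensities were 11.61, 11.84, 11.48 and 11.94 at 29.5 hpf, against 11.30, 11.24, 11.46 and 11.01 at 46 hpf. The lowest 29.5 hpf value, 11.48, lay only just above the highest 46 hpf value, 11.46. How many of all tested probes separate in this way was not counted. On 7 of 8 arrays the signal was higher at 29.5 hpf, yet the replicate ratios spread too widely to pass. Across all tested probes 0.672% were called higher.

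BMPR1A probe 3 ran the other way, with replicate ratios of -0.33, -0.23, -0.44 and -0.22. Its mean was -0.31 ± 0.10 (SD, n = 4; limma adjusted p = 0.107), and it was lower at 29.5 hpf on 8 of 8 arrays. Its intensities were 10.28, 10.32, 9.72 and 10.27 at 29.5 hpf, against 10.61, 10.55, 10.16 and 10.49 at 46 hpf, and these overlapped. With numbers 1 and 2 exchanged the adjusted p was 0.244. It passed in the 4 alternatives that took the 8 arrays singly, where it was 0.0118 to 0.0389 and a dye-swapped pair counted as more than 1 sample. The brightest probe of BMPR1A, probe 1, had a ratio of -0.20 ± 0.31 (SD, n = 4; adjusted p = 0.528). Within replicates, probe 2 exceeded probe 3 by 0.77 ± 0.29 (SD, n = 4), between 0.47 and 1.15, in 4 of 4. It exceeded probe 1 in 4 of 4 as well, by up to 1.08. These pairs were not tested, and they leave the gene without a single ratio.

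ACVR1 encodes another type I receptor of BMP signals. Probe 1 had replicate ratios of 0.07, 0.47, 0.52 and 0.44, a mean of 0.38 ± 0.21 (SD, n = 4; limma adjusted p = 0.133), with 7 of 8 arrays higher at 29.5 hpf. The array that went the other way, at -0.33, carried number 1. Its intensities were 11.76, 12.00, 12.50 and 12.11 at 29.5 hpf, against 11.69, 11.53, 11.98 and 11.67 at 46 hpf, and the groups overlapped. ACVR1 probe 2 had a mean of -0.18 ± 0.28 (SD, n = 4; adjusted p = 0.542), with 3 of 8 arrays higher. The 2 probes thus differed in sign, as did those of BMPR1A, SMAD2 and SMAD4.

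No probe of the type II receptors passed the test. BMPR2, which binds BMPs and activates the type I receptors, had the probe with the largest SD among the receptors. This probe 2 had replicate ratios of -0.88, -1.07, -0.37 and 0.25, a mean of -0.52 ± 0.59 (SD, n = 4; limma adjusted p = 0.330), which was the lowest mean of the 17 probes. Its intensities were 10.31, 10.14, 10.12 and 10.61 at 29.5 hpf, against 11.19, 11.21, 10.49 and 10.36 at 46 hpf. The 2 lowest ratios belonged to replicates 1 and 2, replicate 3 was less low, and replicate 4 had the opposite sign.

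BMPR2 probe 1 had a mean near 0 that covered unlike arrays. Its ratio was -1.03 on the array numbered 1 with 29.5 hpf in Cy5 and -0.73 on the array numbered 2 of the opposite orientation, while the other 6 lay between 0.04 and 0.45. The 2 low arrays are those that correlated with each other over all probes. The mean was -0.05 ± 0.36 with the labelled numbers and an SD of 0.55 with the numbers exchanged (n = 4; limma adjusted p = 0.898 and 0.952). BMPR2 probe 3 averaged -0.09 ± 0.17 (SD, n = 4; adjusted p = 0.663).

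ACVR2A encodes a type II receptor for activins that also takes part in BMP signalling. Its probes 1 and 2 had ratios of -0.05 ± 0.16 and -0.17 ± 0.21 (SD, n = 4 each; limma adjusted p = 0.820 and 0.472). Array values of the 2 probes ran between -0.56 and 0.42. Probe 3 was above background on 2 of 8 arrays at 29.5 hpf and 3 of 8 at 46 hpf, and was not tested.

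**Figure D3:**
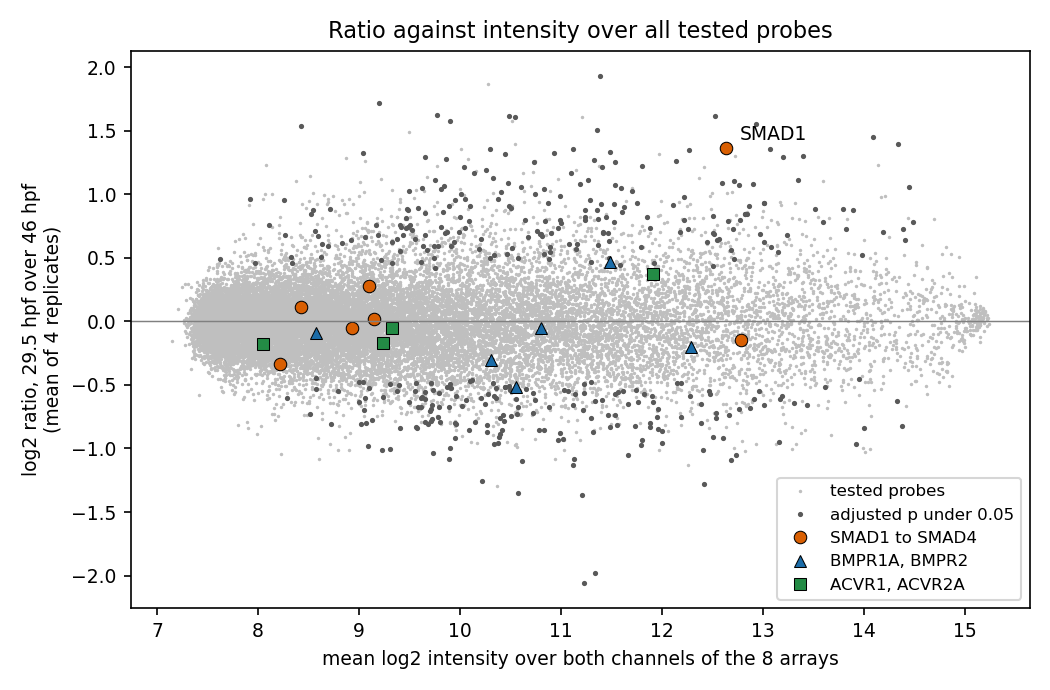
Mean log2 ratio of 29.5 hpf over 46 hpf (vertical axis) against mean log2 intensity over both channels of the 8 arrays (horizontal axis) for all 31559 tested probes; dark points have an adjusted p under 0.05, and large symbols are the 17 tested member probes. SMAD1, at 1.36, lies among the dark points, and the other member probes lie in the cloud of probes that were not called.

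The difference between the dye orientations was the measure that had not chosen the members. It was fitted over the 8 arrays and does not enter the mean ratio. The ratio of 0 of the 17 member probes followed the dye at a limma adjusted p under 0.05, and 0 did so at an unadjusted p under 0.05. Over all 31557 probes measured in both orientations, 15 did after adjustment (0.0475%) and 1692 before it (5.36%). For SMAD1 the mean ratio was 1.21 on the arrays with 29.5 hpf in Cy5 and 1.51 on those with 46 hpf in Cy5. This difference of -0.30 had an adjusted p of 0.947 by limma. The other differences ran from -0.45 for BMPR1A probe 1 to 0.34 for BMPR1A probe 2.

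How well a dye-swapped pair agreed was also read from the members alone. The mean absolute difference between the arrays of a pair over the 17 probes was 0.34, 0.42, 0.34 and 0.28 for the labelled numbers 1 to 4. For the crossed pairs it was 0.21 for number 1 with number 2 in the opposite orientation, and 0.26 for number 2 with number 1. Both crossed pairs were closer than the labelled pairs 1 and 2. These are differences between single arrays, and they say nothing of the spread between replicates.

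The probes with a pattern most like SMAD1 were sought among 16477 tested probes with another symbol, by the root mean square difference of the 8 array ratios. CENPE, a kinesin of the kinetochore, was closest at 0.193, where the median over all candidates was 1.42. HNRNPH1, an RNA-binding splicing regulator, followed at 0.237. ALDH18A1, an enzyme of proline synthesis, and TBC1D15, a GTPase-activating protein for RAB proteins, stood at 0.293 each, and CDV3 at 0.300. Their mean ratios were 1.22, 1.51, 1.26, 1.32 and 1.25 in that order, as the measure of likeness requires. CENPE ranged from 0.93 to 1.54 over the arrays and HNRNPH1 from 1.24 to 1.77. None of these 5 belongs to the pathway lists that follow.

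Beyond the 10 genes, 127 genes of the same pathways were listed by role, and 118 of them had a probe. Each was represented by its brightest tested probe, which left 99 genes. Of these 0 were called higher and 0 lower at 29.5 hpf by limma, where 1.54% of all 12190 genes represented in this way (188) were called in either direction. The 99 ratios ran from -0.58 to 0.74 with a median of -0.03, against a median of -0.01 over all genes. Of the 99, 41 were above 0, as were 5932 of the 12190 genes. Of the 99, 10 stood above background on under 4 of 8 arrays in 1 of the groups, and their ratios rest on signal near background. A gene missing the threshold with 4 values is not shown to be equal in both groups.

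Of the ligands, 18 of 27 were tested, with a median ratio of -0.02. BMP15, which the oocyte secretes, had the smallest p of the list and a ratio of -0.51 ± 0.42 (SD, n = 4; limma adjusted p = 0.208). Its replicate 3 stood at -1.12, against -0.26, -0.23 and -0.42 in the others. GDF9, its partner from the oocyte, had -0.31 ± 0.43 (SD, n = 4; adjusted p = 0.444), again with the lowest value, -0.79, in replicate 3. BMP3 had -0.22 ± 0.28 (SD, n = 4; adjusted p = 0.442).

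Of the other receptors and co-receptors, 10 of 15 were tested, with a median of -0.03. CRIPTO, a co-receptor of NODAL, had -0.17 ± 0.11 (SD, n = 4; limma adjusted p = 0.315). ACVR1B, a type I receptor for activins, had 0.29 ± 0.38 (SD, n = 4; adjusted p = 0.419). Of the remaining SMAD genes, SMAD6, an inhibitor of BMP signals, had 0.11 ± 0.12 (SD, n = 4; adjusted p = 0.528) and SMAD9, another SMAD of BMP signals, had -0.03 ± 0.10 (SD, n = 4; adjusted p = 0.893). The SMAD9 probe stood above background on 3 of 8 arrays at 29.5 hpf and 4 of 8 at 46 hpf, so little can be said of a difference. Of the antagonists, 12 of 16 were tested, with a median of -0.02. SOSTDC1, a secreted BMP antagonist, had -0.39 ± 0.24 (SD, n = 4; adjusted p = 0.147). BMPER, which binds BMPs outside the cell, had 0.43 ± 0.34 (adjusted p = 0.203) on its brighter probe and 0.04 ± 0.09 (adjusted p = 0.825) on the other (SD, n = 4 each). The brighter BMPER probe stood above background on 5 of 8 arrays at 29.5 hpf and 2 of 8 at 46 hpf, so it was tested through the group where it was higher.

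Of the adaptors, ubiquitin enzymes and phosphatases that handle SMAD proteins, 27 of 28 were tested, with a median of -0.01 and 13 above 0. SMURF1, a ubiquitin ligase that targets SMAD1, SMAD5 and BMP receptors, had replicate ratios of -0.28, -0.53, -0.73 and -0.59. Its mean was -0.53 ± 0.19 (SD, n = 4; limma adjusted p = 0.0655), and it was lower at 29.5 hpf on all 8 arrays. ZFYVE16, also called endofin, an endosomal protein that brings SMAD1 to its receptors, had 0.39, 0.50, 1.00 and 1.06, with a mean of 0.74 ± 0.34 (SD, n = 4; adjusted p = 0.0750). With numbers 1 and 2 exchanged the SD was 0.16 for SMURF1 and 0.63 for ZFYVE16 (limma adjusted p = 0.128 and 0.309). Neither passed here, and both passed in some of the fits that took the arrays singly, as did XIAP and TAB2. Those fits also called more of all probes, 822 to 1455 higher and 816 to 1556 lower. On replicate averages, ZFYVE16 and XIAP also passed without background subtraction, and TAB2 with signal required on all arrays in both channels.

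Of the nuclear partners, 14 of 21 were tested, with a median of -0.03. SKI, a corepressor of SMAD complexes, had -0.30 ± 0.16 (SD, n = 4; limma adjusted p = 0.153) on its brightest probe and -0.09 and -0.21 on its others. TOB1, a protein that binds SMADs and the deadenylation machinery, had -0.58 ± 0.60 (SD, n = 4; adjusted p = 0.283), with replicate 4 at -1.45. Of 11 target genes 9 were tested, with a median of -0.12. That median is the ratio of ID1, and 3 of the 9 (ID1, ID2 and MSX2) were tested only through their signal at 46 hpf, so nothing is read from it. GATA2 had -0.27 ± 0.23 (adjusted p = 0.284) and HEY1, a Notch and BMP target, -0.18 ± 0.12 (adjusted p = 0.311; SD, n = 4 each). All 7 listed genes of the branch that runs through the kinase MAP3K7 instead of SMADs were tested, with a median of -0.16. XIAP, which links BMP receptors to that kinase, had -0.51 ± 0.14 (SD, n = 4; adjusted p = 0.0529) and was lower at 29.5 hpf on all 8 arrays. TAB2, a binding partner of MAP3K7, had -0.44 ± 0.17 (SD, n = 4; adjusted p = 0.0793).

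**Figure D4:**
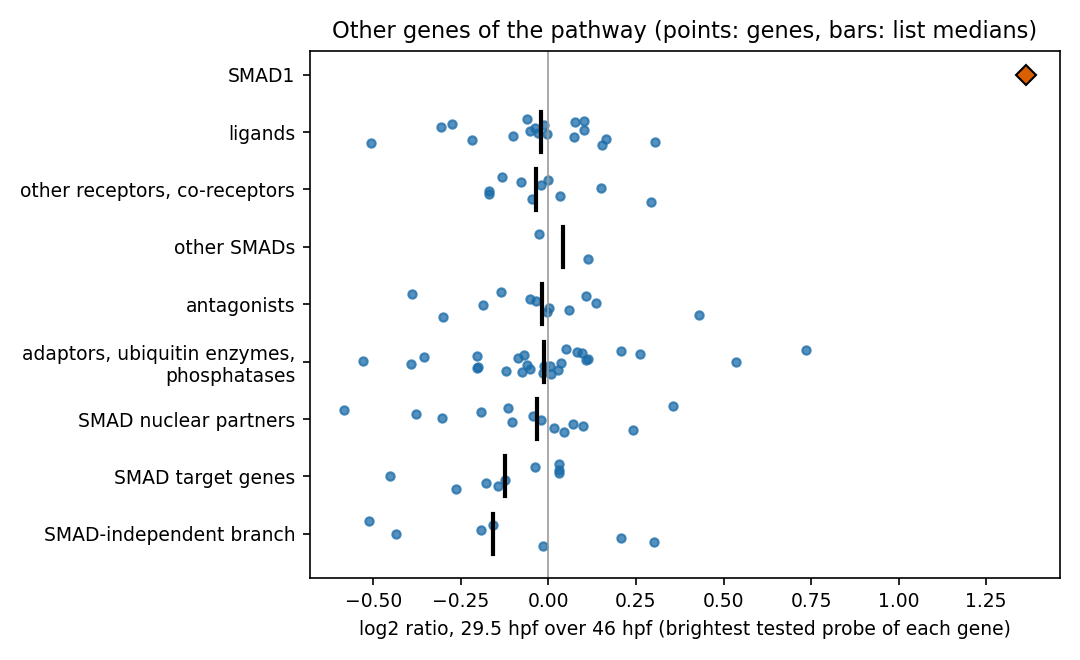
Mean log2 ratio of 29.5 hpf over 46 hpf (horizontal axis) of SMAD1 and of the brightest tested probe of 99 other pathway genes, in rows by role; points are genes and bars the median of each row. All 99 lie between -0.58 and 0.74, and SMAD1 lies at 1.36.

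Transcripts of the other cells that an embryo sample could carry were read beside these results. Of 20 oocyte and early embryo markers, 18 were tested. GDF9, BMP15, ZP3 (a zona pellucida protein) and NLRP5 (a maternal-effect protein) stood above background on all 8 arrays in both groups, as the label of the samples requires. The log2 of the list's summed intensity was 17.25 to 17.44 at 29.5 hpf and 17.35 to 17.44 at 46 hpf, and these ranges overlapped. Of the 18 ratios, 9 were positive and 9 negative, between -0.52 and 0.61. NLRP2, a maternal-effect gene of the oocyte, was called higher at 29.5 hpf, with a ratio of 0.61 ± 0.05 (SD, n = 4; limma adjusted p = 0.0329, and 0.122 with numbers 1 and 2 exchanged). ZP3 and NLRP5 had -0.08 ± 0.27 and 0.09 ± 0.29 (SD, n = 4 each; adjusted p = 0.811 and 0.781).

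Of 20 markers of cumulus and granulosa cells, which surround the oocyte, 13 were tested, and 7 (LHCGR, TNFAIP6, AMH, FOXL2, HSD3B1, LUM and DCN) were not above background often enough. Their summed intensity was 15.04 to 15.31 at 29.5 hpf and 15.04 to 15.08 at 46 hpf on the log2 scale. SERPINE2, a protease inhibitor made by cumulus cells, was called lower at 29.5 hpf, with a ratio of -1.28 ± 0.10 (SD, n = 4; limma adjusted p = 0.0217). With numbers 1 and 2 exchanged its adjusted p was 0.0609, and the call was lost. Of the 13 cumulus markers, 7 had a positive ratio and 6 a negative one. The highest was STAR, a cholesterol transport protein named here after its value was seen, at 0.67 ± 0.38 (SD, n = 4; limma adjusted p = 0.107) and higher at 29.5 hpf on 8 of 8 arrays. CYP11A1, among the negative ones, stood above background on 3 of 8 arrays at 29.5 hpf and 4 of 8 at 46 hpf. It was thus tested through the group where it was higher. Bright probes weigh most in the summed intensity. The mean log2 level of STAR was 14.58 at 29.5 hpf and 13.91 at 46 hpf, and that of SERPINE2 was 11.78 and 13.06. The sum therefore says little of the dimmer markers. Of 10 sperm markers 4 were tested, and PRM1, TNP1, TNP2, AKAP4, ODF1 and GAPDHS were not above background often enough. The sum of the 4 was 9.80 to 9.89 at 29.5 hpf and 9.86 to 10.21 at 46 hpf, and 1 ratio was positive and 3 negative. PRM2, among these negative ones, was above background on 3 of 8 arrays at 29.5 hpf and 6 of 8 at 46 hpf. Its test too came through the group where it was higher. The cumulus markers thus ran both ways, and the part of other cells in the SMAD1 ratio was not tested.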

How the data were processed

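The deposited scanner files give linear intensity per spot, the mean signal and median local background for Cy3 and Cy5, not normalized, per the file headers. The deposited value table gives the authors' log2 ratios; how these were normalized is not stated in the sources used here. Its columns were set against the Cy5 over Cy3 log2 ratios normalized as below, over tested probes of at least median intensity. Slopes were 1.20 to 1.48 (29.5 hpf in Cy5) and -1.37 to -1.07 (46 hpf in Cy5), so the columns already ran as 29.5 over 46 hpf. Their medians were -0.015 to 0.012, and their centring stays unknown. They served as an alternative.

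Background was corrected by normexp (offset 50) and ratios by loess within arrays, with 1418 control spots at weight 0 (limma 3.58.1, R 4.3.3). Signs were turned to 29.5 over 46 hpf, and arrays of 1 number averaged. Tested probes had signal above the mean plus 2 SD of 153 negative control spots on at least 4 arrays in the channels of 1 group, with a value in at least 3 replicates. The two-sided test against 0 was that of lmFit and eBayes in limma. Nothing beyond the series' statement says that replicates were separate pools of embryos. Symbols came from the platform annotation (21781 probes with 1 symbol, 0 with several, 22013 with none listed), updated through RefSeq's ARS-UCD2.0 gene table, where 20016 were current, 1524 renamed and 241 kept. The members and gene lists were chosen with earlier results of these data known. The genes named are all members, the 2 genes of each pathway list with the smallest p, called genes of the pathway and marker lists, 4 oocyte markers, and the 5 probes most like SMAD1. Alternatives covered background, normalization, filter, pairing, blocks, dye orientation and left-out replicates.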

Additional observations from a re-analysis of the deposited data

How the results depend on the processing

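The SMAD1 ratio was positive in all 19 alternatives, while the counts of called probes moved with most of them. All 19 used arrays on which SMAD1 was selected, so they describe its ratio and do not test it. Changes of the filter or of the pairing alone left it at 1.36 by construction. Between 0 and 4 of the 17 member ratios changed sign in an alternative, none over 0.28 in size. With the labelled averaging 212 probes were higher and 176 lower at 29.5 hpf, with 1 member (SMAD1) higher, 0 members lower, 0 pathway genes called either way and 15 probes whose ratio followed the dye. Without background subtraction 364 were higher and 290 lower, with 1 pathway gene higher, 1 lower, and 58 that followed the dye. An offset of 10 gave 115 lower and 8 that followed the dye. Requiring signal on all arrays in both channels left fewer tested probes, 6905. Of these 525 were higher and 459 lower, with 1 pathway gene each way and 0 that followed the dye. Median centring in place of loess gave 0 higher and 0 lower (6433 at an unadjusted limma p under 0.05) and 0 members higher. SMAD1 was then 1.06 (adjusted p = 0.0738), the median of all probes moved to -0.08, 8090 probes followed the dye, and so did 7 members. The authors' deposited table gave 11 higher and 1 lower, with 0 members higher and SMAD1 at an adjusted p of 0.0504; higher probes were 91.7% of its calls, against 54.6% with the main setting.

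Averaging with numbers 1 and 2 exchanged gave 4 higher and 0 lower (4027 unadjusted), SMAD1 among them. The 8 arrays with the replicate number as a block (correlation 0.14) gave 822 higher and 816 lower, 1 member lower (BMPR1A probe 3), 1 pathway gene higher, 2 lower, and 28 that followed the dye. With no pairing term it was 1108 higher and 1124 lower, with 1 member lower and 2 pathway genes higher and 4 lower. With an orientation term it was 952 higher and 964 lower, with 1 member lower and 1 pathway gene higher and 2 lower. With the title number as a block it was 1455 higher and 1556 lower, with 2 members lower (SMAD4 probe 3, BMPR1A probe 3), 3 pathway genes higher, 5 lower, and 27 that followed the dye. The pathway genes called in any fit were ZFYVE16, RNF111 and USP9X (higher) and SMURF1, XIAP, TAB2, SOSTDC1 and TRIM33 (lower). RNF111, USP9X and TRIM33 are named after their values were seen. With the title number as a block, the 3 higher and 5 lower of 99 pathway genes stood beside 1455 and 1556 of 31559 tested probes. No excess of pathway genes is read from these counts. The fits that took the 8 arrays singly count a dye-swapped pair as 2 samples in whole or in part. On replicate averages, ZFYVE16 and XIAP were called without background subtraction (limma adjusted p = 0.0492 and 0.0488). RNF111 and TAB2 were called on replicate averages with signal required on all arrays in both channels (limma adjusted p = 0.0388 and 0.0455).

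The 4 arrays with 29.5 hpf in Cy5 alone gave 0 higher, 0 lower and 0 members (3508 unadjusted), with SMAD1 at 1.21 (adjusted p = 0.0679). The 4 with 46 hpf in Cy5 gave 0 higher, 0 lower and 0 members (4698 unadjusted), with SMAD1 at 1.51 (adjusted p = 0.0690). Arrays numbered 3 and 4 alone, an alternative added after seeing the data, also gave 0 higher, 0 lower and 0 members (3968 unadjusted; SMAD1 1.41). Leaving out any 1 replicate gave 0 to 0 higher, 0 to 0 lower and 0 to 0 members higher (3971 to 5166 unadjusted by limma), which has fewer values per probe by construction; other causes were not tested. Depth on these arrays is signal over background: SMAD5, SMAD7 and ACVR2A probe 3 were too dim to compare.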
